A study of Mus musculus with 9 samples.

Results

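Insulin and insulin-like growth factor (IGF) signalling in the liver was followed here through 10 genes: Irs1, Irs2, Insr, Foxo1, Igf1, Igfals, Igfbp1, Igfbp2, Igfbp3 and Igfbp4. A probe belonged to the set if the gene name in the array files was one of these symbols. This gave 18 probes of 9 genes, among 41174 probes on the array and 17633 features tested. Irs2, the second large substrate of the insulin receptor in liver, is not analysed here. All 18 probes passed the filter on dim signals, and 15 of them were well above background on all 9 arrays.

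Livers came from male C57bl/6J mice aged 16 weeks that had eaten 1 of 3 diets for 12 weeks. The HFD+APS mice ate a high-fat diet (60 kcal% fat) into which APS was mixed at 40 g per kg, the HFD mice ate the same high-fat diet alone, and the chow mice ate chow. The labels use APS without spelling it out. No transgene or injected agent is named for any group. From the 24 mice of the study, 3 livers a group were picked by liver histology and triglyceride results, and each was hybridised to 1 one-colour Agilent array, so p-values measure the spread between livers selected in that way.

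Insulin binds its receptor on hepatocytes, the receptor phosphorylates the IRS docking proteins, and the signal runs through PI3-kinase and AKT, which keeps the transcription factor FOXO1 out of the nucleus. The liver is also the main source of circulating IGF1, which travels in blood bound to IGF-binding proteins, most of it in a complex with IGFBP3 and the acid-labile subunit. Insulin represses transcription of Igfbp1 in liver, and its promoter carries a classic insulin response sequence to which forkhead factors bind.

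The sequences below belong to the genes whose levels differed and to the textbook insulin-responsive promoter of this set. The Igfbp2 reading rests on 1 probe at chr1:72898677-72898736 (mm9, plus strand, from the array files), whose last codon, the only stop triplet in the frame that starts at its first base, is in capitals. The promoters are the 250 bases before the gene start from RefSeq (GRCm38.p6), on the gene's strand, at chr1:82291440-82291689 (minus) for Irs1 and chr11:7197537-7197786 (plus) for Igfbp1. Capitals mark CAAAACA or its reverse complement TGTTTTG in both promoters, and also TATTTTG in Igfbp1.
Igfbp2 probe: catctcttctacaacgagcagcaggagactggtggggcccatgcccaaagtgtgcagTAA
Irs1 promoter: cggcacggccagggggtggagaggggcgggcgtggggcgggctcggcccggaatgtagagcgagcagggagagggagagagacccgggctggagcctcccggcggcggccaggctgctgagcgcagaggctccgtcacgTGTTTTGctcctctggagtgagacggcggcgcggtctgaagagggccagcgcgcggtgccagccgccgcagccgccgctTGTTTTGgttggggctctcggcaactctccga
Igfbp1 promoter: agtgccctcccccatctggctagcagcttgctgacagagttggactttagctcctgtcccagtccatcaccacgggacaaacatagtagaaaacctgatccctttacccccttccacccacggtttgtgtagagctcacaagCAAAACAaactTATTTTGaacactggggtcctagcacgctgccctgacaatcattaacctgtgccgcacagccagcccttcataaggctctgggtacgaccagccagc

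The Irs1 promoter held 2 matches of the CAAAACA motif, both as TGTTTTG, starting at -111 and -32 relative to the gene start. Igfbp1 held CAAAACA at -108 and TATTTTG at -97. The 2 RefSeq windows of Igfbp2 held no match of CAAAACA. Windows of 250 bases before to 50 after the start were searched on both strands, and the motifs do not overlap each other in the sequences printed. Of 32851 such windows in the genome, 6.28% held CAAAACA at least once, 0.493% held it 2 or more times and 0.472% held both CAAAACA and TATTTTG. Of the 10 genes, 9 matched the RefSeq table, with 12 windows, and 3 of these windows held CAAAACA (Irs1, Irs2 and Igfbp1). A match describes the letters of the window and was not tested as a binding site.

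The high-fat diet was accompanied by lower Irs1 and Igfbp2. Against chow livers, 2 of the 9 measured genes were lower in HFD livers and 0 were higher at an adjusted p under 0.05 (limma, Benjamini-Hochberg over all 17633 features). Among all features 10.8% were called in that comparison, 6.48% lower and 4.3% higher, so that 22.2% of the set stood beside that background. In HFD+APS livers against HFD livers, Igfbp2 had the widest difference of the set, but 0 of 9 genes passed the threshold, where 1.38% of all features did. Against chow, 0 of 9 genes passed in HFD+APS livers, where 3.58% of features did.

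**Figure D1:**
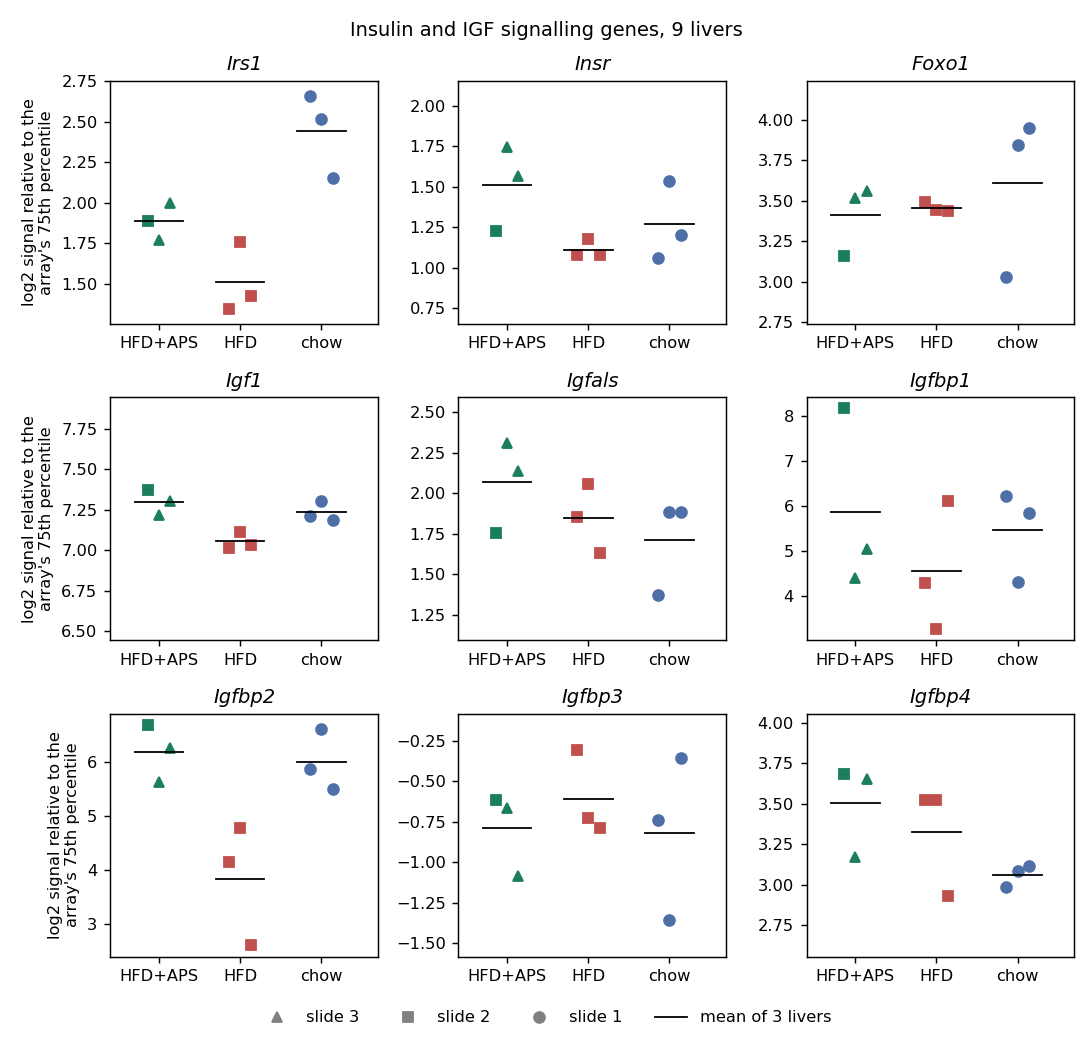
Values of the 9 measured genes on each array, as log2 signal minus the upper quartile of the same array, with HFD+APS, HFD and chow livers from left to right. Symbols give the slide and the line is the mean of 3 livers. The HFD arrays of Irs1 and Igfbp2 sit below all chow and all HFD+APS arrays, while Igfbp1 is spread widely within each diet.

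All levels below are log2 of the processed signal minus the array's own 75th percentile, so 0 is the brightness of the upper quartile probe, and a difference of 1 is a doubling. Levels of different probes are not set against each other. The 9 arrays correlated at 0.979 to 0.9924 within groups and at 0.9633 to 0.9843 between groups. Spots well above background made up 54.1% of HFD+APS 1 and 63.5 and 64.5% of HFD+APS 2 and 3, 50.4 to 53.9% of an HFD array and 61.5 to 68.4% of a chow array. The raw mean signal of negative control spots averaged 64.5 to 70.9 on slide 2, which held HFD+APS 1 and the HFD arrays, and 44.7 to 50.2 on the other slides. The part of this in the lower HFD readings of dim probes was not tested. Slide 3 held HFD+APS 2 and 3, slide 2 held HFD+APS 1 and the 3 HFD arrays, and slide 1 held the 3 chow arrays. For HFD against chow and for HFD+APS against chow, the slide and the diet therefore cannot be told apart.

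The tissue label was checked with cell type markers. Sums here are the log2 of the added signals of the detected markers, so the brightest markers weigh most. Of 8 hepatocyte markers 7 were detected (Tf is not analysed here). They summed to 11 to 11.4 in HFD+APS, 11.1 to 11.2 in HFD and 11.2 to 11.3 in chow livers. Of these 7, Serpina1c, one of a family of near-identical copies, alone passed the threshold between HFD and chow, with a difference of -0.74 ± 0.13 (adjusted p = 0.0168). Sinusoidal endothelial markers (7 of 7 detected) summed to 5.86 to 6.05 in HFD+APS, 5.76 to 6 in HFD and 4.79 to 5.48 in chow livers, and 2 of them were higher in HFD than in chow. Stellate cell and fibroblast markers (7 of 7) summed to 6.74 to 6.95 in HFD+APS, 6.8 to 7.04 in HFD and 6.06 to 6.88 in chow livers, and 2 of them, Col1a1 and Col3a1, were higher in HFD than in chow. Of 5 lymphocyte markers 1, Cd4, was lower in HFD than in chow, and of 6 Kupffer cell markers, 3 detected neutrophil markers, 2 detected exocrine pancreas markers and the 1 detected adipocyte marker (Cfd) 0 passed (limma). Over all features 4.3% were called higher and 6.48% lower in HFD against chow. The neutrophil sum reached 5.58 on an HFD array, where the highest chow array had 2.62. Cfd, which adipocytes secrete, read -2.21 to -1.63 in HFD+APS, 1.38 to 4.37 in HFD and -3.51 to 2.40 in chow livers. Its differences were -5.12 ± 1.43 between HFD+APS and HFD (adjusted p = 0.125) and 4.43 ± 1.43 between HFD and chow (adjusted p = 0.0804), with signs opposite to those of Igfbp2. The exocrine pancreas sum was 1.31 to 2.12 in HFD+APS, 0.544 to 1.46 in HFD and 1.4 to 1.5 in chow livers. The adipocyte markers Adipoq, Lep and Plin1 were well above background on at most 1 array each, and the skeletal muscle markers Ckm, Acta1 and Myh4 did not pass the filter. In whole liver, fewer cells of a type and less RNA per cell cannot be told apart, and the part of these cell types in the results was not tested.

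Igf1 encodes the growth factor itself, and its brightest probe (A_51_P147942) varied little. It read 7.37, 7.22 and 7.30 in HFD+APS livers, 7.02, 7.11 and 7.03 in HFD livers, and 7.21, 7.30 and 7.19 in chow livers. Every HFD array lay below every array of the other groups, but the gaps were small. HFD was lower than chow by a log2 difference of -0.18 ± 0.09 (SE, adjusted p = 0.221), and HFD+APS exceeded HFD by 0.24 ± 0.09 (adjusted p = 0.224), so neither passed. HFD+APS and chow livers differed by 0.06 ± 0.09 (95% interval -0.15 to 0.28).

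The other 3 Igf1 probes did not repeat the HFD value of the brightest one. Against chow, the HFD difference was 0.12 ± 0.10 at A_52_P536434, -0.02 ± 0.12 at A_52_P351116 and -1.41 ± 0.52 at A_52_P306327, a probe designed to a cDNA clone. That clone probe read 1.52, 1.79 and 1.27 in HFD livers and 2.23, 2.91 and 3.67 in chow livers, with no overlap, and did not pass when every probe was tested on its own (adjusted p = 0.112). Between HFD+APS and HFD livers the means of all 4 probes differed upward, by 0.18 to 0.53. At the clone probe this was 0.24 ± 0.52 (limma, adjusted p = 0.845 over all detected probes). Its HFD+APS arrays read 1.46, 0.94 and 2.91, and only HFD+APS 3 lay above the HFD arrays. The probe with the widest difference, A_52_P351116, read 3.91, 3.86 and 3.96 in HFD+APS livers against 3.31, 3.42 and 3.41 in HFD livers. Its difference of 0.53 ± 0.12 had an adjusted p of 0.0831 over all 26478 detected probes.

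Igfals encodes the acid-labile subunit that holds IGF1 and IGFBP3 in their circulating complex. It read 1.76, 2.31 and 2.13 in HFD+APS livers, 1.85, 2.06 and 1.63 in HFD livers, and 1.37, 1.89 and 1.88 in chow livers. The groups overlapped in every comparison. The difference was 0.22 ± 0.20 between HFD+APS and HFD (adjusted p = 0.604) and 0.13 ± 0.20 between HFD and chow (adjusted p = 0.691). HFD+APS and chow livers differed by 0.35 ± 0.20 (95% interval -0.11 to 0.82, adjusted p = 0.320).

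Igfbp1 encodes a binding protein that hepatocytes secrete in fasting and that insulin represses. Its arrays read 8.18, 4.40 and 5.04 in HFD+APS livers, 4.28, 3.26 and 6.11 in HFD livers, and 6.22, 4.30 and 5.85 in chow livers. The spread within a diet was as wide as the differences between diets, with an SD of 2.02 in HFD+APS, 1.45 in HFD and 1.02 in chow livers. HFD minus chow was -0.91 ± 1.08 (adjusted p = 0.605) and HFD+APS minus HFD was 1.32 ± 1.08 (adjusted p = 0.554). The interval of the HFD effect ran from -3.39 to 1.58, and so held changes of either sign. HFD+APS 1 carried the highest value of all, and without it HFD+APS minus HFD was 0.17.

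Igfbp2, a second binding protein secreted by the liver, showed the widest differences of the set. It read 6.69, 5.63 and 6.26 in HFD+APS livers, 4.15, 4.77 and 2.60 in HFD livers, and 5.88, 6.62 and 5.50 in chow livers. All HFD arrays lay below all others, HFD 3 lowest, and the HFD+APS and chow arrays overlapped. HFD livers fell by 2.16 ± 0.55 on the log2 scale against chow livers, to 0.224 of the chow level (adjusted p = 0.0446, 95% interval -3.43 to -0.89). HFD+APS livers stood 2.35 ± 0.55 above HFD livers, a 5.11-fold difference that did not pass (adjusted p = 0.0809, 95% interval 1.08 to 3.62). HFD+APS and chow livers differed by 0.19 ± 0.55 (adjusted p = 0.862, 95% interval -1.08 to 1.46).

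The Igfbp2 call between HFD and chow was close to the threshold. It was lost when chow 1, chow 2, chow 3, HFD 1, HFD 3, HFD+APS 2 or HFD+APS 3 was left out, with adjusted p-values from 0.0422 to 0.139 over the 9 such fits. The difference itself stayed between -2.63 and -1.54, the smallest without HFD 3. Without HFD 3 the adjusted p was 0.0789. Within slide 2, HFD+APS 1 exceeded the HFD mean of 3.84 by 2.85, and HFD+APS 2 and 3 on slide 3 exceeded it by 2.10.

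Igfbp3 encodes the most abundant IGF carrier of blood, which in liver comes mainly from non-parenchymal cells, and its probes disagreed. The brightest probe (A_52_P253179) read -0.62, -0.67 and -1.08 in HFD+APS livers, -0.31, -0.72 and -0.79 in HFD livers, and -0.74, -1.36 and -0.36 in chow livers. All groups overlapped, and HFD minus chow was 0.21 ± 0.26 (adjusted p = 0.622). A clone-derived probe of the same gene name, A_52_P851352 at chr11:7111815-7111874 (mm9, minus strand), read -3.57, -3.77 and -5.09 in HFD livers and -2.48, -2.64 and -1.72 in chow livers, with no overlap. It was not well above background on any HFD array, so its level there is a bound. HFD livers were at least 2.24-fold lower than chow livers at this probe (adjusted p = 0.0307 over all detected probes, of which 9.87% were called). The probe passed the filter through 3 chow and 2 HFD+APS arrays, where it is brighter, so this p is no support on its own. In HFD+APS livers it read -3.28, -3.79 and -3.24 and was well above background on 2 of 3 arrays. The third Igfbp3 probe, A_51_P228472, differed by -0.09 ± 0.29 between HFD and chow, but it was well above background on only 1 of 3 HFD arrays.

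Igfbp4, a carrier that restrains IGF action until it is cleaved, read 3.68, 3.17 and 3.65 in HFD+APS livers, 3.52, 3.52 and 2.93 in HFD livers, and 2.98, 3.08 and 3.12 in chow livers. The HFD+APS arrays lay above all chow arrays, by a mean of 0.44 ± 0.20 (adjusted p = 0.216). HFD minus chow was 0.26 ± 0.20 (adjusted p = 0.404), with HFD 3 below the chow range. The second probe differed less, by 0.09 ± 0.10 between HFD+APS and chow.

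**Figure D2:**
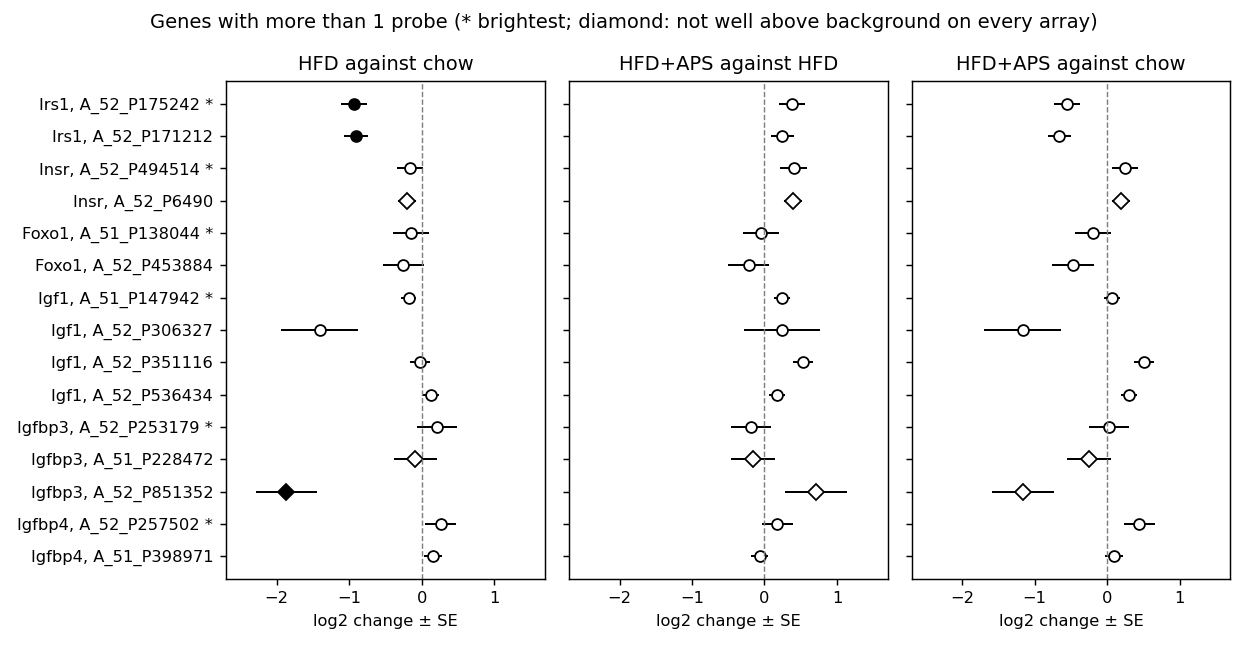
Log2 change with its SE for each probe of the 6 genes with more than 1 probe, in the 3 comparisons. Filled symbols had an adjusted p under 0.05 over all 26478 detected probes, and diamonds mark probes not well above background on every array. The 2 Irs1 probes lie together at about the same HFD value, whereas the probes of Igf1 and Igfbp3 are spread apart.

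Insr encodes the insulin receptor. Its brighter probe read 1.22, 1.74 and 1.57 in HFD+APS livers, 1.08, 1.17 and 1.08 in HFD livers, and 1.06, 1.54 and 1.20 in chow livers. HFD+APS arrays lay above all HFD arrays, and both groups overlapped with chow. HFD+APS exceeded HFD by 0.40 ± 0.17 (adjusted p = 0.261), and the second probe gave 0.40 ± 0.11 (adjusted p = 0.122 over all probes). That second probe was dim, and well above background on only 2 of 3 HFD arrays. At the brighter probe the difference within slide 2 was 0.11, and for the HFD+APS arrays of slide 3 it was 0.54. HFD minus chow was -0.16 ± 0.17 (95% interval -0.54 to 0.23).

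Irs1 encodes the docking protein that the activated receptor phosphorylates and that recruits PI3-kinase. Its brighter probe (A_52_P175242, at chr1:82229692-82229751, mm9, minus strand) read 1.89, 1.77 and 2.001 in HFD+APS livers, 1.34, 1.76 and 1.43 in HFD livers, and 2.66, 2.51 and 2.15 in chow livers. The 3 groups did not overlap at any point, with HFD lowest, HFD+APS between and chow highest, although HFD 2 and HFD+APS 2 were nearly equal. HFD livers fell by 0.93 ± 0.17 on the log2 scale against chow livers, to 0.523 of the chow level (adjusted p = 0.0169, 95% interval -1.32 to -0.55). HFD+APS livers stood 0.38 ± 0.17 above HFD livers (adjusted p = 0.288) and 0.56 ± 0.17 below chow livers, a log2 change of -0.56 (adjusted p = 0.0938), and neither passed.

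The second Irs1 probe (A_52_P171212, at chr1:82233564-82233623) read -2.07, -2.33 and -2.30 in HFD+APS livers, -2.37, -2.46 and -2.62 in HFD livers, and -1.32, -1.65 and -1.76 in chow livers. Here too every HFD array was below every chow array, by a mean of -0.91 ± 0.15 (adjusted p = 0.0139 over all probes). The HFD+APS arrays lay just above the HFD arrays, with a difference of 0.25 ± 0.15 (adjusted p = 0.421). Leaving out chow 2 or HFD 3 ended the HFD call of the brighter probe (adjusted p = 0.0645 and 0.0512), with differences of -0.90 and -0.89. HFD+APS minus HFD was 0.38 both within slide 2 and for the HFD+APS arrays of slide 3.

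Foxo1 encodes the forkhead factor that AKT inactivates. It read 3.16, 3.52 and 3.56 in HFD+APS livers, 3.49, 3.44 and 3.44 in HFD livers, and 3.03, 3.85 and 3.95 in chow livers. The chow arrays spanned the whole range of the other groups. HFD minus chow was -0.15 ± 0.24 (95% interval -0.69 to 0.39), and HFD+APS minus HFD was -0.04 ± 0.24 (95% interval -0.58 to 0.49). HFD+APS minus chow was -0.20 ± 0.24 (adjusted p = 0.647). The second probe (A_52_P453884) read 1.63, 2.09 and 2.18 in HFD+APS livers, 2.36, 2.08 and 2.11 in HFD livers, and 1.80, 2.68 and 2.83 in chow livers. It repeated the order of the chow arrays, with chow 1 lowest at both probes, and gave an HFD-minus-chow difference of -0.25 ± 0.27.

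**Figure D3:**
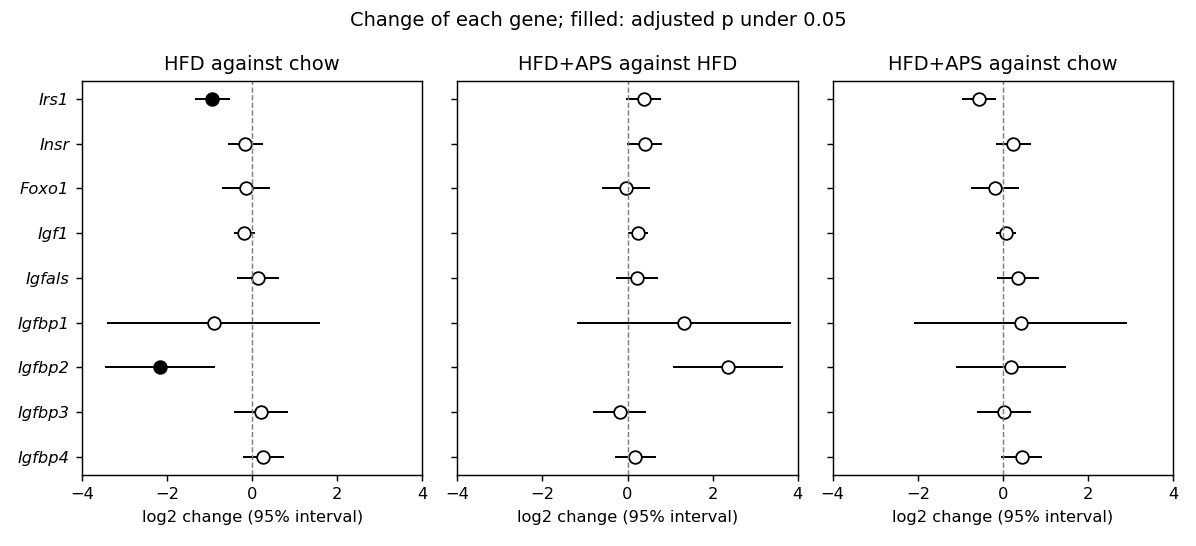
Log2 change of each gene with its 95% interval in the 3 comparisons, filled where the adjusted p was under 0.05. Irs1 and Igfbp2 are filled for HFD against chow, and no gene is filled in the other comparisons.

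Counted over the set, 3 of 9 genes were separated between HFD and chow with no overlap of arrays (Irs1, Igfbp2 and Igf1, all lower in HFD), where 38.7% of all features were. Between HFD+APS and HFD 4 of 9 were separated, all higher in HFD+APS (Igf1, Igfbp2, Insr and Irs1), where 24.4% of features were. Between HFD+APS and chow 2 of 9 were (Igfbp4 higher and Irs1 lower in HFD+APS), where 30.9% of features were. The median log2 change for HFD against chow was -0.16 over the 9 genes and -0.05 over all features. It was 0.24 over the 9 genes and 0.00298 over all features for HFD+APS against HFD, and 0.19 and -0.04 for HFD+APS against chow. The first and the second comparison share the HFD livers, and the first and the third share the chow livers. Before adjustment, 3 of 9 genes (Igf1, Igfbp2 and Insr) had p under 0.05 for HFD+APS against HFD, where 17.7% of features did, and 1 of 9 (Irs1) for HFD+APS against chow, where 25% did. With normexp background correction or array weights, 1 of 9 (Igfbp2) passed the adjusted threshold for HFD+APS against HFD, and in each setting run 0 passed for HFD+APS against chow.

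**Figure D4:**
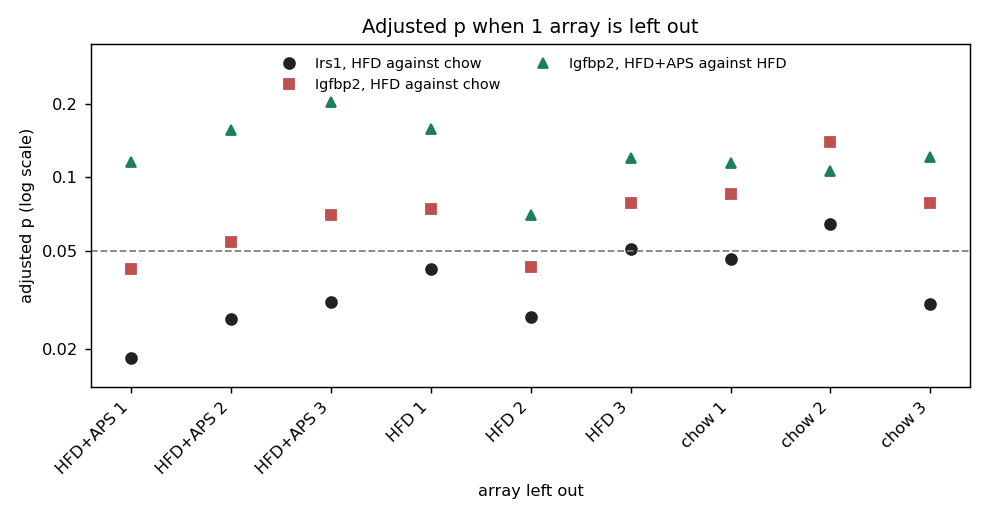
Adjusted p (log scale) of Irs1 and Igfbp2 when the array named on the axis is left out, with a dashed line at 0.05. Irs1 crosses the line without HFD 3 or chow 2, and Igfbp2 in HFD against chow lies below it only without HFD+APS 1 or HFD 2.

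The features most like the called genes over the 9 arrays were found by Pearson correlation on the log2 scale, as a description. For Igfbp2 the most alike was Atxn2 (r = 0.966), with HFD minus chow of -0.42. For Irs1 they were Prss54 (r = 0.971) and Atn1 (r = 0.969), with HFD minus chow of -1.95 and -0.73. Atxn2 did not pass between HFD and chow (adjusted p = 0.0687), whereas Prss54 (adjusted p = 0.00496) and Atn1 (adjusted p = 0.0116) did.

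The rest of the pathway was read from 4 lists with 65 genes, of which 61 were tested. Pappa, Pappa2 and Stc2 did not pass the filter, and Pck1 is not analysed here. Between HFD and chow 2 list genes were higher and 4 lower, 9.84% of those tested, close to the 10.8% of all features. The 4 include Foxo4, which was below detection in HFD livers. Between HFD+APS and HFD 0 of 61 passed (limma), with 8 (13.1%) at an unadjusted p under 0.05, where 17.7% of all features were. Grb14, an adaptor that inhibits the insulin receptor, was higher in HFD+APS than in HFD by 0.49 ± 0.10 (limma, adjusted p = 0.0523). It passed there with normexp, with the filter at 9 of 9 arrays, with limma-trend and with array weights. Thrsp, lower in HFD+APS by a log2 change of -2.34 ± 0.75 (limma, adjusted p = 0.164), passed with array weights. Between HFD+APS and chow 1 passed, 1.64% of those tested, where 3.58% of features did. Of the other genes called in HFD against chow, Gsk3a differed there by -0.52 ± 0.12 (limma, adjusted p = 0.0527). The brighter Socs3 probe differed by -0.62 ± 0.15 (adjusted p = 0.0590) and Sesn3 by 0.43 ± 0.11 (adjusted p = 0.0745). Foxo4 differed by -1.02 ± 0.49 (adjusted p = 0.236) and Thrsp by 0.72 ± 0.75 (adjusted p = 0.590).

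Among 23 genes of the relay from the receptor to AKT and mTOR, 2 were lower in HFD than in chow. None was higher and 21 did not pass, where 6.48% of all features were called lower and 4.3% higher. Gsk3a, a glycogen synthase kinase that AKT inhibits, read -1.46, -1.79 and -1.66 in HFD+APS, -1.63, -1.76 and -1.90 in HFD and -1.15, -1.07 and -1.13 in chow livers. It fell by 0.65 ± 0.12 in HFD against chow, with no overlap (adjusted p = 0.0188). Foxo4, a forkhead factor related to Foxo1, was not well above background on any HFD array, and HFD livers were at least 1.82-fold lower than chow livers (adjusted p = 0.0302). Its probe passed the filter through 3 chow and 2 HFD+APS arrays, where it is brighter, so this p is no support on its own. The count of 2 lower genes includes Foxo4. The call was lost with no filter on dim probes (adjusted p = 0.0571), with normexp (0.0513) and with slide as a random block (0.0708). The median of this list was -0.06 for HFD against chow. Of its 23 genes, 17.4% had an unadjusted p under 0.05 in that comparison (limma), where 31.3% of all features did. For HFD+APS against HFD 13% did, where 17.7% of features did. For HFD+APS against chow 13% did, where 25% of features did.

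Among 14 inhibitors of insulin signalling, 2 were lower in HFD, 0 higher and 12 did not pass. The shares over all features were 6.48% lower and 4.3% higher. Phlpp2, a phosphatase of AKT, fell by 0.59 ± 0.13 (adjusted p = 0.0311) and was also lower in HFD+APS than in chow, by -0.63 ± 0.13 (adjusted p = 0.0437). Its second probe differed by -0.36 ± 0.25 and 0.08 ± 0.25 in those comparisons. Socs3 encodes a suppressor of cytokine signalling that also binds the insulin receptor. Its brighter probe read lower by 0.58 ± 0.15 (adjusted p = 0.0471), and the call rests on that probe alone. That probe is annotated to the plus strand. The other Socs3 probe, designed to the RefSeq transcript, is on the minus strand. It differed by 1.16 ± 1.06, and HFD 3 read 5.20 there. Whether the brighter probe reads the Socs3 transcript was not tested. Of the 14 inhibitors, 35.7% had an unadjusted p under 0.05 for HFD against chow (limma), where 31.3% of all features did. For HFD+APS against HFD 14.3% did, where 17.7% of features did. For HFD+APS against chow 42.9% did, where 25% of features did.

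Among 11 tested genes that respond to insulin or FOXO1 in liver, 2 were higher in HFD, 0 lower and 9 did not pass. Of all features 4.3% were called higher and 6.48% lower. Thrsp, a regulator of lipogenesis, read 0.19, 2.06 and 1.93 in HFD+APS, 4.65, 4.29 and 2.26 in HFD and 1.02, -0.27 and 1.26 in chow livers. HFD lay above all other arrays, by 3.07 ± 0.75 against chow (adjusted p = 0.0390). Sesn3, a FOXO target that restrains mTOR, rose by 0.44 ± 0.11 (adjusted p = 0.0463), with 0.34 ± 0.15 at its second probe. Another Sesn3 probe was well above background on 2 of 3 chow arrays but on none of the HFD arrays. Its readings differed the other way, by -0.35 ± 0.14, but its HFD level is below detection and no bound is given. Over 12 other settings the Sesn3 difference ran from 0.14 to 0.47, and 6 of 12 passed. Of the 11 responsive genes, 36.4% had an unadjusted p under 0.05 for HFD against chow (limma), where 31.3% of all features did. For HFD+APS against HFD 18.2% did, where 17.7% of features did. For HFD+APS against chow 18.2% did, where 25% of features did. Of 13 other genes of the IGF and growth hormone axis, 0 passed in any of the 3 comparisons (limma). At an unadjusted p under 0.05 there were 2 for HFD against chow (15.4%, where 31.3% of all features were), 1 for HFD+APS against HFD (7.69%, against 17.7%) and 2 for HFD+APS against chow (15.4%, against 25%). Jak2 and Igfbp7 passed for HFD against chow with array weights. Over all 13 genes of this list, the HFD-minus-chow changes ran from -0.37 to 0.76 with a median of 0.24.

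The list counts depended on single arrays. Between HFD and chow the 6 calls became 0 without chow 2 or chow 3, 1 without chow 1, HFD 2 or HFD 3, and 2 without HFD 1 or HFD+APS 3. Between HFD+APS and chow the 1 call became 8 without HFD+APS 1 and 0 without chow 1, 2 or 3, HFD 1, HFD 2, HFD+APS 2 or HFD+APS 3. Without HFD 3 the 1 call was Socs3, and Phlpp2 was no longer called.

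**Figure D5:**
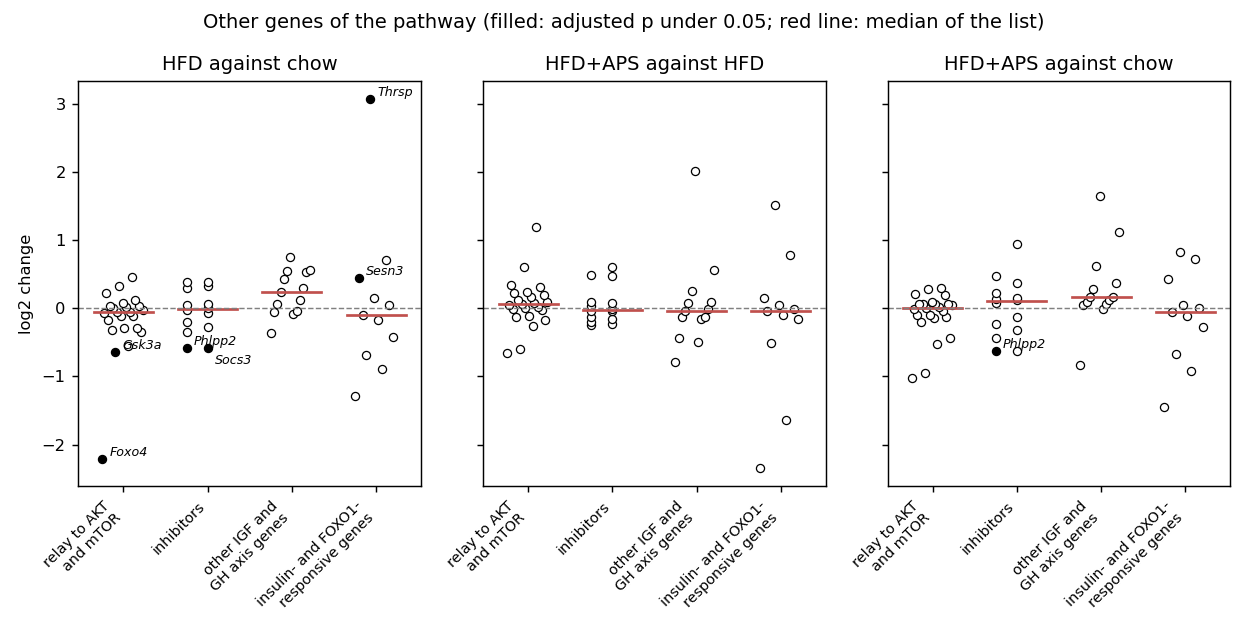
Log2 change of the 61 tested list genes, grouped by list, in the 3 comparisons. Filled points passed an adjusted p under 0.05 and are named, and the red line is the median of the list. The HFD level of Foxo4 is only a bound. Called genes appear mainly in HFD against chow (6), with 0 in HFD+APS against HFD and 1 in HFD+APS against chow.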

How the data were processed

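Total RNA from 9 mouse livers was hybridised to 9 one-colour (Cy3) Agilent arrays. Agilent Feature Extraction turned the scans into values (version 10.7 in the submitters' notes on processing, 10.7.1.1 in the headers). Each spot's deposited processed signal is, per the file headers, a background-corrected intensity that was not scaled between arrays. The authors also deposited log2 values of all arrays as a table, used here only as an alternative. The lowest correlation of its columns with the log2 signals of the same arrays was 0.9969, and column medians were 4.98 to 4.99. Its normalization step is not given in the sources used here, and the notes name limma without its role.

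Here log2 processed signals were averaged over spots of a probe, and the array's 75th percentile was subtracted (R 4.3.3, data.table, version 1.17.8). Control spots and spots marked as outliers were left out. A probe entered if Feature Extraction called it well above background on at least 3 of the 9 arrays (26478 of 41174 probes), and the brightest probe on average stood for its gene (17633 features; 5 missing values). Features were tested with limma 3.58.1 (lmFit, eBayes, 2-sided) in 1 fit of all 9 arrays, with 6 residual degrees of freedom, and p-values were adjusted by Benjamini-Hochberg over all features, at a threshold of 0.05. The script was tested on simulated data. The number of arrays limits the precision. A bound ("at least N-fold") sets the mean of the brighter group against the lowest signal well above background, or the probe's own if higher, on each array of the dimmer one. Coordinates of probes are those of the array files (mm9), and exons or UTRs were not assigned. Gene names were updated through RefSeq (GRCm38.p6).

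The set, the 4 pathway lists and the marker lists were chosen with earlier results of these data known. Named are all 10 genes with each detected probe, list genes past the threshold (at most 4 per list and comparison), and the 2 features most correlated with each called gene, leaving out clone names (1 of these features is not reported here). Genes named outside this rule were chosen after their values were seen. Alternatives covered scaling, background correction, filter, probe summary, the authors' values, slide and replicate blocks, array weights, limma-trend and leaving out each array.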

Additional observations from a re-analysis of the deposited data

How the results depend on the processing

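Gene changes and counts of calls were recomputed under 12 other settings (13 for HFD+APS against HFD) and without each of the 9 arrays. Of 722 recomputed gene changes, 613 kept their direction and their side of the threshold, 85 kept the direction without passing, 2 passed newly and 22 turned sign. Most of the 722 were not called in the main fit and had no call to lose, and the 85 are all lost calls. Of 9 fits without 1 array, the HFD-against-chow call held in 7 for Irs1, 5 for Gsk3a and 4 for Foxo4. It held in 2 each for Igfbp2, Phlpp2, Sesn3, Socs3 and Thrsp. Irs1 in HFD against chow passed in 12 of 12 other settings (adjusted p 0.0089 to 0.0418), and Igfbp2 in 7 of 12 (0.0275 to 0.0878). The settings reuse the same arrays, and slide as a random block cannot separate slide from diet in this comparison.

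For HFD against chow the set held 1 call in place of 2 (Irs1) with no filter on dim probes, with only the groups compared, with slide as a random block, with the replicate block and with array weights, and 0 to 2 when an array was left out. For HFD+APS against HFD it held 1 in place of 0 (Igfbp2) with normexp and with array weights, and 0 when any array was left out. No pairing of the livers by replicate number was seen. Deviations of same-numbered arrays correlated at -0.175 to 0.164, and the own number correlated best in 4 of 9 cases. With 3 livers a group, this cannot exclude a pairing. With the replicate block Igfbp2 had an adjusted p of 0.0543 and Irs1 0.0399 in HFD against chow. Of the 6 list calls for HFD against chow, the replicate block left 2, the mean of probes 3, and no filter or slide as a random block 1 (Gsk3a). The 1 list call for HFD+APS against chow became 10 with array weights, 3 with the filter at 9 of 9 arrays, 2 with normexp or limma-trend, and 0 with no filter, the mean of probes, the authors' values, only the groups compared, or either the slide or the replicate block.

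Differences that were not called and turned sign were these. With the mean of all detected probes, Igfbp3 had -0.58 in HFD against chow, 0.12 in HFD+APS against HFD and -0.46 in HFD+APS against chow, and Igf1 had -0.0722 in HFD+APS against chow. Foxo1 in HFD+APS against HFD had 0.00195 with normexp and 0.0559 with array weights. Igfals had -0.0923 there with slide as a fixed block. Array weights gave Igfbp1 -0.35 and Igfbp3 -0.22 in HFD+APS against chow. Among called genes Socs3 turned to 0.29 with the mean of its probes. Leaving out arrays gave ranges that cross 0 in HFD against chow for Foxo1 (-0.439 to 0.0185), Igfals (-0.0367 to 0.242) and Igfbp3 (-0.0576 to 0.442). In HFD+APS against HFD they did for Foxo1 (-0.119 to 0.0816) and Igfbp4 (-0.0217 to 0.343). In HFD+APS against chow they did for Igfbp1 (-0.74 to 1.15), Igfbp2 (-0.0570 to 0.502) and Igfbp3 (-0.24 to 0.26). The cause was not tested.

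Of all calls between HFD+APS and chow 25.5% were higher in HFD+APS, and 39.2% with normexp background correction, 30.7% with quantile scaling and 31.2% with the authors' values. Between HFD and chow 39.9% were higher in HFD, and 48.5% with normexp, 41.3% with quantile scaling and 42.3% with the authors' values. With 3 livers a group, the intervals of Igfbp1 and Igfbp2 are wide, and dim probes give bounds only.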
